A study of Mus musculus with 95 samples.

Results

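Genes of the Nodal and BMP signalling pathways were followed through wild-type mouse embryonic stem cells and knockout lines of the Polycomb genes Pcgf1 to Pcgf6. The 10 genes, of 23377 in the table of gene counts, were a fixed list with no condition on their values: the ligand Nodal, its co-receptor Tdgf1 (Cripto), its antagonists Lefty1 and Lefty2, the ligand Bmp4, the Id1, Id2 and Id3 genes, and the inhibitory SMADs Smad6 and Smad7. All 10 passed the filter on low counts. The RNA-seq groups were wild-type E14 cells and the knockout lines Pcgf1-/-, Pcgf2/4-/-, Pcgf3/5-/-, Pcgf6-/-, Pcgf1/2/4-/- and Pcgf3/5/6-/-, with 2 libraries each, where the 4 stands for Pcgf4, the gene listed as Bmi1. E14 is an established line of mouse embryonic stem cells, and every group was grown in serum with leukemia inhibitory factor plus inhibitors of GSK3β and of MEK1/2. Knockout lines were clones made with Cas9, and those lacking several genes were edited stepwise from clones lacking fewer. Peak lists from ChIP-seq, 80 in all, came from the same lines and from cells with other Polycomb genes removed or factors knocked down. By their labels, the former were Ezh1/2-/-, Ring1a/b-/- and Ring1a-/-_Ring1bfl. The knockdowns were labelled shMGA, shMGAdHLH, shE2F6, shE2F6-MGAdHLH, shUsf1 and shUsf2, with the control shCtr.

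Nodal signals through activin receptors together with the co-receptor encoded by Tdgf1, and SMAD2 and SMAD3 carry the signal to the nucleus. Lefty1 and Lefty2 are secreted antagonists that are themselves induced by Nodal signalling, which makes a negative feedback loop. BMP4 signals through other receptors and SMAD1, SMAD5 and SMAD9. The Id genes, which encode inhibitors of basic helix-loop-helix transcription factors, are its classic targets in embryonic stem cells. SMAD6 and SMAD7 are inhibitory SMADs that act inside the cell. Polycomb repressive complex 1 (PRC1) contains RING1A or RING1B, which attach ubiquitin to histone H2A (H2AK119ub1), and 1 of 6 PCGF proteins, which define its variants. Polycomb repressive complex 2, of which SUZ12 is a core subunit, places H3K27me3, and both complexes favour promoters rich in CG dinucleotides.

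The promoters of the genes differed in sequence. The windows printed here are the 250 bases before the first start of transcription of 4 of the genes, read on the gene's strand from the mouse build NCBIM37 (mm9). Id2 (chr12:25780958-25781207, minus strand) and Smad6 (chr9:63869867-63870116, minus strand) are shown because RING1B, SUZ12, PCGF1 and PCGF2 all had a wild-type peak near them, and Tdgf1 (chr9:110848663-110848912, minus strand) because none of these did. CG dinucleotides are in capitals in these 3 sequences.
Id2: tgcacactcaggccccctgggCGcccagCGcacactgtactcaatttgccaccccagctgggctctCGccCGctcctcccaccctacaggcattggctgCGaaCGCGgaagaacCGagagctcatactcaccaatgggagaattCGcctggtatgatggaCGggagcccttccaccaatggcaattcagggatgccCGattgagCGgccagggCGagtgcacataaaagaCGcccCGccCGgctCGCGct
Smad6: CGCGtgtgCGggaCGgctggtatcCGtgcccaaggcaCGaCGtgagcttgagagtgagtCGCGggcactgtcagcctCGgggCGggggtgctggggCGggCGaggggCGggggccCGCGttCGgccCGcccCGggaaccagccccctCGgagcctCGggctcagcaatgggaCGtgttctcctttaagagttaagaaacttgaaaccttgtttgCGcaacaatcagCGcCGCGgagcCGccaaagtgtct
Tdgf1: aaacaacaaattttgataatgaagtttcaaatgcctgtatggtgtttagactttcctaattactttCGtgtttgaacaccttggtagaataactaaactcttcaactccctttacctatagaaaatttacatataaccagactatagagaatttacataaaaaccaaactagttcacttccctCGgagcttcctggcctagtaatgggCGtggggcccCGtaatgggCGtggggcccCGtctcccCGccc
Bmp4 (chr14:47010345-47010594, minus strand) is shown because PCGF6 peaks covered its window in several lists. Its capitals mark a CACGTG E-box, the type of site bound by MGA and MAX, which are partners of PCGF6.
Bmp4: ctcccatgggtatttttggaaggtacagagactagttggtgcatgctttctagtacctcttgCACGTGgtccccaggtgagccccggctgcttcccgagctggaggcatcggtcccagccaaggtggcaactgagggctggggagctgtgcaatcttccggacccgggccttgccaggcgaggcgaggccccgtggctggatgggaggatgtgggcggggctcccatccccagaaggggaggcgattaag
The Smad6 window held 27 CG dinucleotides, that of Id2 18, that of Bmp4 11 and that of Tdgf1 7, against a median of 9 over 20816 promoters. Among the other members, Smad7 had 30, Id1 had 6, Id3 had 5, Lefty2 had 4, Nodal had 3 and Lefty1 had 1. The number of CG dinucleotides did not go with peaks throughout. Smad7 had the most and no RING1B or SUZ12 peak in wild-type, whereas Id3 had few and a peak of each. The SMAD element CAGAC, searched on both strands, was in the windows of 5 members (Lefty1, Lefty2, Tdgf1, Id1 and Id3) and in 40.8% of all promoters. GGCGCC, a BMP response element, was in those of Id2 and Smad7 and in 11.5% of all promoters. CACGTG was in that of Bmp4 alone and in 6.67% of all promoters, and TCCCGC, an E2F6-type site, in those of Smad6 and Smad7 and in 20.9% of all promoters. These are matches of letters, and binding at them was not tested.

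The libraries held between 2147968 and 7848161 counts, with the lowest totals in the Pcgf1/2/4-/- and Pcgf3/5/6-/- lines and in replicate 1 of Pcgf2/4-/-. The pair of wild-type libraries differed by less than the sampling noise (chi-square per degree of freedom 0.951, against 1.19 to 21.3 in the other lines), so they count as 1 sample for the levels and no SD is given for them, although they entered the fit as 2 libraries. Because nothing in the labels says that the libraries of a line came from separate cultures or clones, p-values measure only the spread between these libraries, which may be technical. The pair that stood furthest apart was Pcgf2/4-/-. Pcgf1 was lost in the libraries labelled Pcgf1-/- (4.81 and 3.20 CPM, counts scaled to a common library size, against 66.1 and 61.0 in wild-type) and in those labelled Pcgf1/2/4-/- (0.534 and 0.903 CPM). Pcgf6 had 0 counts in both libraries labelled Pcgf6-/-, but 42.0 and 37.2 CPM in those labelled Pcgf3/5/6-/-, against 36.2 and 34.3 CPM in wild-type, so the transcript level does not show its loss there. The transcript levels of Pcgf2, Bmi1 and Pcgf3 likewise do not show the loss their labels name. Pcgf5 had 16.4 and 13.5 CPM in the libraries labelled Pcgf3/5/6-/-, against 13 and 10.8 CPM in wild-type. It had 5.48 and 4.60 CPM in those labelled Pcgf3/5-/-, beside 5.36 and 4.12 CPM in Pcgf1-/- and 3.77 and 5.88 CPM in Pcgf2/4-/-, which keep the gene by their labels. Groups are named as labelled. The 6 embryonic stem cell markers Pou5f1, Nanog, Sox2, Klf4, Esrrb and Zfp42 were detected in every line, with a summed level of 971 to 2120 CPM. The sum was 1160 to 1170 CPM in wild-type, 971 to 1400 in Pcgf1-/-, 1250 to 1960 in Pcgf2/4-/- and 1180 to 1390 in Pcgf3/5-/-. It was 1080 to 1160 CPM in Pcgf6-/-, 1520 to 1540 in Pcgf3/5/6-/- and 2010 to 2120 in Pcgf1/2/4-/-. The markers did not move together. In Pcgf3/5/6-/-, 3 lay above wild-type without overlap and 3 (Sox2, Klf4 and Esrrb) below, and in Pcgf1/2/4-/- 5 lay above and 1 (Klf4) below. Klf4 had 60.4 and 53.7 CPM in Pcgf3/5/6-/- and 69.4 and 79.0 CPM in Pcgf1/2/4-/-, against 92.3 and 92.0 CPM in wild-type. In bulk samples, fewer cells of a type and less RNA per cell cannot be told apart.

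**Figure D1:**
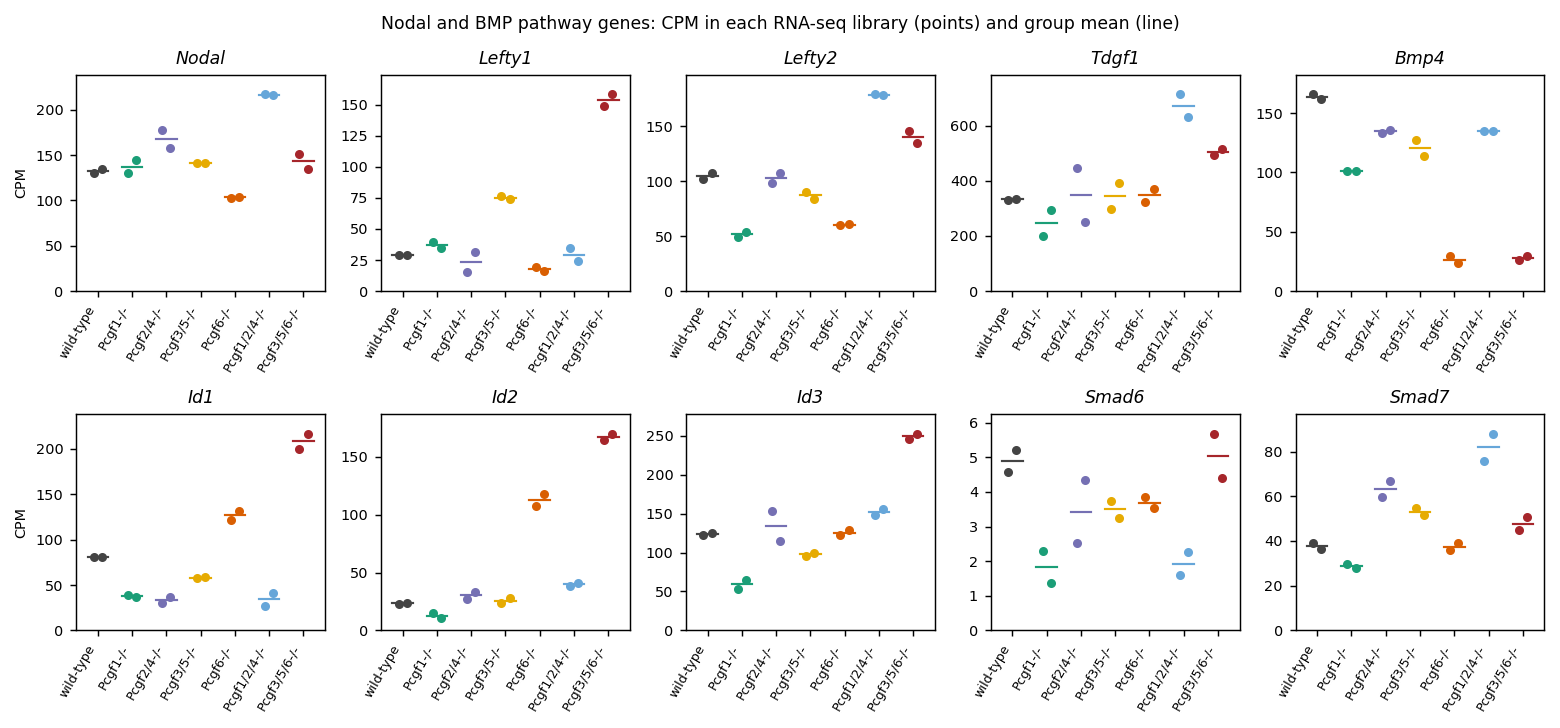
Level of each of the 10 genes in CPM (vertical axes, linear, from 0) in the 14 RNA-seq libraries, by line. Points are libraries and short lines are group means, and each panel has its own scale. Bmp4 is low in both Pcgf6-/- and both Pcgf3/5/6-/- libraries (23.6 to 29.5 CPM), where Id2 is high (107 to 170 CPM).

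Each knockout line was compared with wild-type in 1 edgeR quasi-likelihood fit over all 14 libraries and 15464 genes, with Benjamini-Hochberg adjusted p-values over all genes tested and a threshold of 0.05. Of the 10 genes, 7 changed in Pcgf1-/- (0 higher, 7 lower), where 32.3% of all genes tested changed and 18.4% were lower. In Pcgf2/4-/- 2 changed (1 higher, 1 lower; 21.6% of all genes), or 4 without replicate 2 of that line. For Pcgf3/5-/- the count was 4 (2 higher, 2 lower; 21.6% of all genes), and it fell to between 1 and 2 when either library of either group was left out. In Pcgf6-/- 6 changed (2 higher, 4 lower; 46.5%), in Pcgf1/2/4-/- 7 (5 higher, 2 lower; 37.0%, with 14.4% higher) and in Pcgf3/5/6-/- 7 (6 higher, 1 lower; 53.3%, with 28.0% higher). The median log2 fold change of the 10 genes was -0.76 in Pcgf1-/-, against -0.05 over all genes tested. It was 0.50 in Pcgf1/2/4-/- against -0.11, and 0.51 in Pcgf3/5/6-/- against 0.05. Medians lay between -0.19 and 0.02 in the other lines, against 0.00 to 0.03 over all genes. All 6 comparisons share the wild-type libraries. Both libraries of a knockout line lay on the same side of the wild-type pair, with no overlap, for most of the 15464 genes. This held for 9989 genes in Pcgf1-/-, 8277 in Pcgf2/4-/-, 9656 in Pcgf3/5-/-, 12440 in Pcgf6-/-, 11821 in Pcgf1/2/4-/- and 13221 in Pcgf3/5/6-/-. Pairs that do not overlap wild-type were thus the more common case. Of the 33 calls, 21 held under every alternative, and 6 were lost when the wild-type counts were summed into 1 library.

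**Figure D2:**
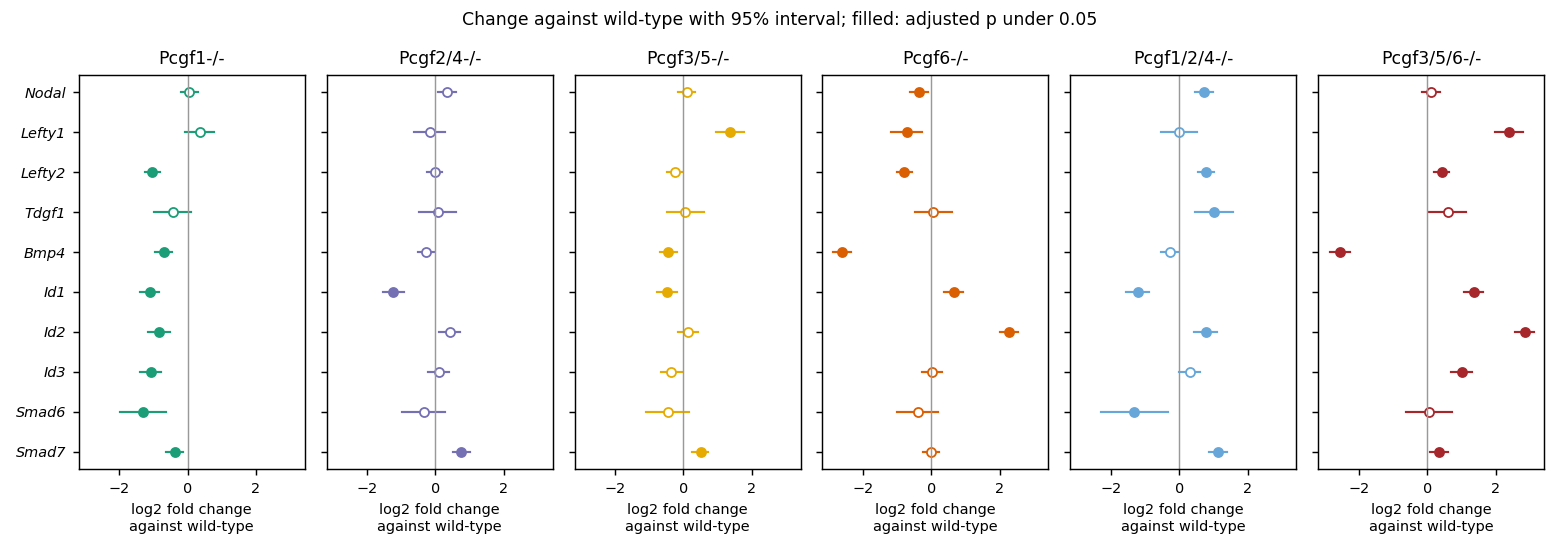
Log2 fold change of each gene against wild-type (horizontal axes) in the 6 knockout lines, with 95% intervals from the edgeR fit. Filled points passed an adjusted p of 0.05: the 7 filled points of Pcgf1-/- all lie below 0, and those of Bmp4 and Id2 lie furthest from 0 in Pcgf6-/-.

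Nodal (chr10:60880720-60888086), the ligand, changed in 2 lines, upward in Pcgf1/2/4-/- and downward in Pcgf6-/-. Its level was 131 and 134 CPM in wild-type, 217 and 216 CPM in Pcgf1/2/4-/-, and 103 and 104 CPM in Pcgf6-/-. Neither knockout pair overlapped wild-type. The log2 difference was 0.71 (SE 0.12, edgeR adjusted p = 0.000584) in Pcgf1/2/4-/-. In Pcgf6-/- it was -0.36 (SE 0.12, edgeR adjusted p = 0.0228), a call that was lost when any 1 of the 4 libraries was left out (adjusted p 0.0862 to 0.124). Pcgf2/4-/- had 178 and 158 CPM, above both wild-type libraries (log2 difference 0.34, edgeR adjusted p = 0.0595). That difference passed without replicate 2 of the line (0.42, adjusted p = 0.0278). The remaining lines did not pass: Pcgf1-/- had 130 and 145 CPM, Pcgf3/5-/- 142 and 142 CPM, and Pcgf3/5/6-/- 152 and 135 CPM.

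Tdgf1 (chr9:110842114-110848662), which encodes the co-receptor, rose only in Pcgf1/2/4-/- by this test. Wild-type had 330 and 336 CPM and Pcgf1/2/4-/- 715 and 630 CPM, with no overlap (log2 difference 1.02, SE 0.26, edgeR adjusted p = 0.00740; 1.00 and adjusted p = 0.0533 without wild-type replicate 1). Over the alternatives, the log2 difference in Pcgf1/2/4-/- ran from 0.44 to 1.11. The summed stem cell markers were also higher in that line (2010 to 2120 CPM, against 1160 to 1170 CPM in wild-type), although Klf4 among them was lower. Pcgf3/5/6-/- had 495 and 514 CPM, also above both wild-type libraries, with a log2 difference of 0.60 (95% interval 0.06 to 1.14) and an edgeR adjusted p of 0.0591. That difference passed with the other size factors (0.67, adjusted p = 0.0436), with no filter (0.57, adjusted p = 0.0262) and with DESeq2 (0.67, adjusted p = 0.0389). Replicates of this gene lay far apart elsewhere: 200 and 295 CPM in Pcgf1-/-, 446 and 251 CPM in Pcgf2/4-/-, and 297 and 393 CPM in Pcgf3/5-/-. The last of these spread across the wild-type values, as did those of Pcgf2/4-/- and of Pcgf6-/- (324 and 371 CPM). With loess offsets, Pcgf1-/- (-0.37, edgeR adjusted p = 0.000493) and Pcgf6-/- (0.17, edgeR adjusted p = 0.0498) did pass.

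Lefty1 (chr1:182865153-182868531) and Lefty2 (chr1:182823239-182829234), the Nodal antagonists, changed in different lines. They are neighbouring copies: 17.9% of the 50-base stretches of the Lefty1 transcript also occur in another gene, and 11.6% of those of Lefty2, so the split of reads between them is uncertain. Lefty1 had 29.1 and 29.3 CPM in wild-type, 76.2 and 74.4 CPM in Pcgf3/5-/-, and 149 and 159 CPM in Pcgf3/5/6-/-. These 3 lines stood in this order with no overlap. The log2 difference from wild-type was 1.37 (SE 0.19, edgeR adjusted p = 0.000189) in Pcgf3/5-/- and 2.40 (SE 0.19, edgeR adjusted p = 2.29e-07) in Pcgf3/5/6-/-. Lefty1 was lower in Pcgf6-/-, at 19.4 and 15.9 CPM (log2 difference -0.72, SE 0.21, edgeR adjusted p = 0.0118), a call lost without wild-type replicate 2 (adjusted p = 0.0527) or Pcgf6-/- replicate 2 (-0.59, adjusted p = 0.0983). The Pcgf2/4-/- libraries differed 2.04-fold from each other, at 15.5 and 31.7 CPM, on either side of wild-type. Pcgf1-/- had 39.4 and 34.8 CPM and Pcgf1/2/4-/- 34.7 and 23.9 CPM, and neither passed the test. Of these, Pcgf1-/- did pass with loess offsets (0.42, edgeR adjusted p = 0.0416).

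Lefty2 fell in the 2 single knockouts and rose in the 2 triple knockouts. Wild-type had 102 and 107 CPM. Pcgf1-/- had 49.6 and 53.5 CPM (log2 difference -1.03, SE 0.10, edgeR adjusted p = 9.11e-06) and Pcgf6-/- 60.1 and 60.8 CPM (-0.79, SE 0.10, edgeR adjusted p = 2.14e-05). Pcgf1/2/4-/- had 179 and 179 CPM (0.77, SE 0.10, edgeR adjusted p = 9.08e-05) and Pcgf3/5/6-/- 146 and 135 CPM (0.42, SE 0.10, edgeR adjusted p = 0.00326). These 4 pairs did not overlap wild-type or each other, and all 4 calls held under every alternative. The double knockouts lay at 98.4 and 108 CPM (Pcgf2/4-/-) and 90.5 and 84.2 CPM (Pcgf3/5-/-) and did not pass.

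Bmp4 (chr14:47003195-47010344), the BMP ligand, fell in 4 lines and rose in none by this test. Wild-type had 166 and 162 CPM. The level was 29.5 and 23.6 CPM in Pcgf6-/-, 6.14-fold lower (log2 difference -2.62, SE 0.12, edgeR adjusted p = 1.21e-09), and 26.2 and 29.4 CPM in Pcgf3/5/6-/-, 5.89-fold lower (-2.56, SE 0.13, edgeR adjusted p = 4.08e-09). These 4 libraries overlapped among themselves and lay far below the other 10. In Pcgf1-/-, Bmp4 had 101 and 102 CPM (-0.69, SE 0.11, edgeR adjusted p = 0.000366). The difference in Pcgf3/5-/-, at 127 and 114 CPM, was small (-0.44, SE 0.11, edgeR adjusted p = 0.0123) and lost its call without either wild-type library or without replicate 2 of the line (adjusted p 0.0634 to 0.127). Pcgf2/4-/- (133 and 136 CPM) and Pcgf1/2/4-/- (135 and 135 CPM) lay below wild-type without passing. Of these, Pcgf1/2/4-/- did pass in a fit of only the 2 groups (-0.22, edgeR adjusted p = 0.00377), which called 8278 of 12704 genes. The gene models Gm15217 and Gm15222 overlap Bmp4 on the other strand, and whether the counting used strand is not given in the sources used here, so reads of these cannot be told apart from those of Bmp4.

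The Id genes did not move as a group. Id1 (chr2:152561987-152563146) changed in all 6 lines, downward in 4 and upward in 2. Among all genes tested 6.94% changed in at least 5 of the 6, which is a looser count than all 6. Wild-type had 81.2 and 81.0 CPM. Id1 was lower in Pcgf1-/- at 38.7 and 36.4 CPM (log2 difference -1.11, SE 0.14, edgeR adjusted p = 3.95e-05), in Pcgf2/4-/- at 30.6 and 36.8 CPM (-1.24, SE 0.14, edgeR adjusted p = 5.86e-05) and in Pcgf1/2/4-/- at 27.2 and 41.5 CPM (-1.22, SE 0.16, edgeR adjusted p = 5.97e-05). The libraries of these 3 lines overlapped one another and lay below wild-type throughout. Pcgf3/5-/- was between them and wild-type, at 58.0 and 58.5 CPM (-0.48, SE 0.13, edgeR adjusted p = 0.0185), and lost its call when any 1 of the 4 libraries was left out (adjusted p 0.0864 to 0.103). Id1 was higher in Pcgf6-/- at 122 and 132 CPM (0.65, SE 0.13, edgeR adjusted p = 0.000688) and in Pcgf3/5/6-/- at 199 and 217 CPM (1.36, SE 0.13, edgeR adjusted p = 1.18e-06).

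Id2 (chr12:25778666-25780957) rose in the lines in which Bmp4 was lowest. It had 23.1 and 23.5 CPM in wild-type, 107 and 118 CPM in Pcgf6-/- and 164 and 170 CPM in Pcgf3/5/6-/-. The rise was 4.82-fold in Pcgf6-/- (log2 difference 2.27, SE 0.13, edgeR adjusted p = 6.78e-09) and 7.17-fold in Pcgf3/5/6-/- (2.84, SE 0.13, edgeR adjusted p = 1.28e-09). Both pairs lay above every library of the other lines. A smaller rise was called in Pcgf1/2/4-/- (38.4 and 41.1 CPM, 0.77, SE 0.16, edgeR adjusted p = 0.00206; 0.73 and adjusted p = 0.0521 without replicate 2 of the line), and a fall in Pcgf1-/- (14.8 and 10.5 CPM, -0.83, SE 0.15, edgeR adjusted p = 0.00102). That fall missed the threshold when only the 2 groups were fitted (-0.75, adjusted p = 0.0520). Pcgf3/5-/- (23.9 and 27.6 CPM) did not pass. Nor did Pcgf2/4-/- (27.2 and 33.4 CPM, 0.42, edgeR adjusted p = 0.0515), although it passed with DESeq2 (0.45, adjusted p = 0.0403) and in edgeR with DESeq2's size factors (0.45, adjusted p = 0.0401), with loess offsets (0.47, adjusted p = 0.0231) and without replicate 1 of the line (0.53, adjusted p = 0.0224).

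Id3 (chr4:135699412-135701670) changed in 2 lines. It had 123 and 125 CPM in wild-type, 53.1 and 65.2 CPM in Pcgf1-/- (log2 difference -1.08, SE 0.14, edgeR adjusted p = 8.32e-05) and 246 and 253 CPM in Pcgf3/5/6-/- (1.01, SE 0.14, edgeR adjusted p = 3.98e-05). In contrast to Id2, it had 122 and 130 CPM in Pcgf6-/-, on either side of wild-type (log2 difference 0.02, 95% interval -0.28 to 0.32). The values were 153 and 115 CPM in Pcgf2/4-/-, 95.5 and 99.7 CPM in Pcgf3/5-/-, and 148 and 156 CPM in Pcgf1/2/4-/-, none of which passed. With alternatives, Pcgf1/2/4-/- passed in DESeq2 (0.38, adjusted p = 0.0387) and in an edgeR fit of only the 2 groups (0.36, adjusted p = 1.11e-06). That fit, whose spread rests partly on the close wild-type pair, called 8278 of 12704 genes, against 5717 of 15464 in the main fit. Pcgf3/5-/- passed in edgeR with loess offsets (-0.33, adjusted p = 0.0160) and with only the 2 groups (-0.33, adjusted p = 0.0112).

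Summed levels of markers of other cell types also differed between the lines, though not always in step with Bmp4, Id1 and Id2. The summed level of 6 primitive endoderm markers (Gata4, Gata6, Sox17, Dab2, Pdgfra and Foxa2) was 1.71 to 1.97 CPM in wild-type, where 5 of the 6 were at 0 in both libraries and only Pdgfra was detected. It was 48.0 to 54.7 CPM in Pcgf6-/- and 55.0 to 64.9 CPM in Pcgf3/5/6-/-, with 0 of 6 at 0 in both libraries, and most of the sum was Dab2 (38.5 to 50.7 CPM). The defining factors Gata4, Gata6 and Sox17 stayed at 2.12 CPM or less there. Pcgf1/2/4-/- had 13.3 to 15.8 CPM. The 5 fibroblast markers (Col1a1, Col1a2, Thy1, Dcn and Acta2) summed to 8.02 to 10.8 CPM in wild-type, 36 to 42.1 CPM in Pcgf6-/- and 49.0 CPM in Pcgf3/5/6-/-, with Dcn at 0 in wild-type and Pcgf6-/-. The 3 Zscan4 genes that mark two-cell-like cells summed to 96.1 to 96.2 CPM in wild-type, 273 to 316 CPM in Pcgf6-/-, 239 to 240 CPM in Pcgf3/5/6-/- and 2.97 to 9.40 CPM in Pcgf1-/-. Beside the higher Nodal and Tdgf1 of Pcgf1/2/4-/-, the 4 formative and primed epiblast markers (Fgf5, Otx2, Pou3f1 and Dnmt3b) summed to 390 to 392 CPM, against 154 to 162 CPM in wild-type. Nearly all of it was Dnmt3b (363 and 358 CPM), while Fgf5 had 0.534 and 0 CPM and Pou3f1 1.6 and 0.903 CPM. The epiblast sum was also higher in Pcgf3/5/6-/- (212 to 234 CPM), where Nodal and Tdgf1 did not pass. The 4 trophoblast markers (Cdx2, Elf5, Tfap2c and Hand1) summed to 223 to 229 CPM in Pcgf3/5/6-/-, where Lefty1 and the Id genes were highest, against 91.5 to 95.1 CPM in wild-type. Most of that sum was Tfap2c (157 to 167 CPM), while Cdx2 was lower there (18.6 and 20.3 CPM, against 71.1 and 77.8 CPM in wild-type). In Pcgf6-/-, where Bmp4 was also low and Id1 and Id2 were high, the trophoblast sum was 43.1 to 44.1 CPM. The 4 mesendoderm markers (T, Eomes, Mixl1 and Gsc) summed to 50.1 to 55.5 CPM in wild-type, 7.35 CPM in both Pcgf6-/- libraries and 14.5 to 16.7 CPM in Pcgf3/5/6-/-. Their sum was below wild-type in every other knockout line too (18.4 to 34.9 CPM). In Pcgf1-/- the lower sum was mostly T (a mean of 7.23 CPM, against 33.1 CPM in wild-type). Eomes (14.3 against 11.8 CPM) and Mixl1 (11.1 against 7.37 CPM) were above wild-type there. The 4 neural markers (Sox1, Pax6, Nes and Neurog2) summed to 4.08 to 6.42 CPM in wild-type, 16.5 to 20.5 CPM in Pcgf6-/- and 25.9 to 26.7 CPM in Pcgf3/5/6-/-, nearly all of it Nes, with Sox1 and Neurog2 at 0 in both of these lines. The neural sum was also higher in Pcgf1-/- (13 to 15.2 CPM), where Bmp4, Id1 and Id2 were lower. The part of such cells in the changes of the 10 genes was not tested.

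The inhibitory SMADs differed from each other. Smad7 (chr18:75527183-75555589) rose in 4 lines and fell in 1, where 6.94% of all genes tested changed in at least 5 of the 6 lines. It had 39.0 and 36.3 CPM in wild-type, 59.5 and 66.8 CPM in Pcgf2/4-/- (log2 difference 0.76, SE 0.11, edgeR adjusted p = 0.000370) and 75.8 and 88.1 CPM in Pcgf1/2/4-/- (1.13, SE 0.12, edgeR adjusted p = 1.22e-05). Both pairs lay above wild-type, and both calls held under every alternative. The changes in Pcgf3/5-/- (54.6 and 51.4 CPM, 0.50, edgeR adjusted p = 0.00601), Pcgf3/5/6-/- (44.9 and 50.7 CPM, 0.34, edgeR adjusted p = 0.0265) and Pcgf1-/- (29.6 and 27.9 CPM, -0.38, edgeR adjusted p = 0.0227) were smaller. They lost their calls without wild-type replicate 2 in each case (0.45, 0.29 and -0.43, adjusted p 0.0795, 0.157 and 0.0638). The first was also lost without Pcgf3/5-/- replicate 1 (0.45, adjusted p = 0.0593), the second without wild-type replicate 1 (0.39, adjusted p = 0.0616) or Pcgf3/5/6-/- replicate 2 (0.23, adjusted p = 0.284), and the third without any 1 of the 4 libraries. Pcgf6-/- had 35.9 and 38.9 CPM, around the wild-type values.

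Smad6 (chr9:63800953-63869866) had few counts, between 3 and 37 per library. It had 4.57 and 5.20 CPM in wild-type, 2.30 and 1.37 CPM in Pcgf1-/- (log2 difference -1.30, SE 0.32, edgeR adjusted p = 0.00644) and 1.60 and 2.26 CPM in Pcgf1/2/4-/- (-1.31, SE 0.46, edgeR adjusted p = 0.0367). Both lines lay below wild-type and overlapped each other. The first call was lost without wild-type replicate 2 (-1.20, adjusted p = 0.0533) or Pcgf1-/- replicate 2 (-0.97, adjusted p = 0.0548). The second, which rests on 8 counts in its line, was lost without any 1 of the 4 libraries (adjusted p 0.0691 to 0.208) and with DESeq2 (-1.24, adjusted p = 0.107). The other lines had 2.51 and 4.35 CPM (Pcgf2/4-/-), 3.74 and 3.26 CPM (Pcgf3/5-/-), 3.86 and 3.52 CPM (Pcgf6-/-) and 5.69 and 4.39 CPM (Pcgf3/5/6-/-), and none passed, although Pcgf6-/- did with loess offsets (-1.03, adjusted p = 0.00138).

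Each triple knockout was also set against the 2 knockout lines whose missing genes are a subset of its own. Against Pcgf1-/-, 7 of the 10 genes were higher in Pcgf1/2/4-/- and 0 lower, where 41.6% of all genes tested changed and 19.6% were higher. Lefty2 differed most (log2 difference 1.80, SE 0.11, edgeR adjusted p = 1.07e-07), followed by Id2 (1.60, SE 0.17, edgeR adjusted p = 1.02e-05), Smad7 (1.51, SE 0.12, edgeR adjusted p = 1.12e-06), Tdgf1 (1.45, SE 0.26, edgeR adjusted p = 0.000611) and Id3 (1.37, SE 0.15, edgeR adjusted p = 1.18e-05). The call of Bmp4 (0.41, edgeR adjusted p = 0.0126) was lost without any 1 of the 4 libraries (adjusted p 0.0529 to 0.0928). Id1, low in both lines, did not pass (-0.12, 95% interval -0.47 to 0.24). Against Pcgf2/4-/-, 4 genes were higher and 0 lower, with 30.0% of all genes changed and 11.6% higher. Lefty2 (0.79, SE 0.11, edgeR adjusted p = 8.99e-05) held under every alternative. Tdgf1 (0.95, edgeR adjusted p = 0.0117), Nodal (0.37, edgeR adjusted p = 0.0328) and Smad7 (0.36, edgeR adjusted p = 0.0317) did not, and the count was 1 without replicate 1 and 2 without replicate 2 of the triple knockout.

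The Pcgf3/5/6-/- line differed from Pcgf3/5-/- in 6 of the 10 genes (5 higher, 1 lower; 51.8% of all genes tested). Bmp4 was lower (log2 difference -2.12, SE 0.13, edgeR adjusted p = 2.46e-08), while Id2 (2.71, SE 0.13, edgeR adjusted p = 2.25e-09), Id1 (1.84, SE 0.13, edgeR adjusted p = 8.81e-08), Id3 (1.35, SE 0.14, edgeR adjusted p = 3.13e-06), Lefty1 (1.03, SE 0.18, edgeR adjusted p = 0.000239) and Lefty2 (0.68, SE 0.10, edgeR adjusted p = 8.32e-05) were higher. Against Pcgf6-/-, 7 genes were higher and 0 lower (46.0% of all genes tested changed and 19.0% were higher). Lefty1 differed by 3.11 (SE 0.20, edgeR adjusted p = 1.57e-07), an 8.64-fold difference, and Lefty2 by 1.21 (SE 0.10, edgeR adjusted p = 1.69e-06). Id3 differed by 0.99 (SE 0.14, edgeR adjusted p = 7.52e-05). The differences of Nodal (0.47, edgeR adjusted p = 0.00597) and Smad7 (0.35, edgeR adjusted p = 0.0264) were lost without single libraries, that of Nodal without Pcgf3/5/6-/- replicate 1 (0.38, adjusted p = 0.0823) and that of Smad7 without either Pcgf6-/- library or Pcgf3/5/6-/- replicate 2 (adjusted p 0.0560 to 0.244). Bmp4 did not pass (0.06, 95% interval -0.24 to 0.36).

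Peaks within 2.5 kb of an annotated start gave the chromatin state at each gene. Each peak list came from 1 sample, so peaks carry no test, and lists differ in length. Scores are the authors': the fold over background and the -log10 q of each peak. In wild-type cells, RING1B peaks lay at 3 of the 10 genes, Id2, Id3 and Smad6 (15.7% of 20819 genes had one), and SUZ12 peaks at the same 3 (17.1%). H3K27me3 peaks lay at Id2 and Smad6 (13.3%), as did peaks of PCGF1 (2.57%) and PCGF2 (13.3%). PCGF6 had a peak at Id2 alone, 2473 bp from the start (5.83%), and PCGF3 at 0 of the 10 (0.898%). H2AK119ub1 peaks were listed at Id1 and Id3 (3.95%). H3K4me3, a mark of active or poised promoters, had a peak at all 10 genes in each of the 5 lines profiled (68.4% of genes in wild-type, 67.3% in Pcgf1-/-, 68.2% in Pcgf2/4-/-, 67.0% in Pcgf3/5-/- and 70.1% in Pcgf6-/-). H3K36me3, a mark of transcribed gene bodies, was listed near Nodal, Tdgf1, Id3 and Smad7 (27.9%), and WDR5 at none (9.49%). USF1 peaks lay at Smad6 and Smad7 (17.0%).

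**Figure D3:**
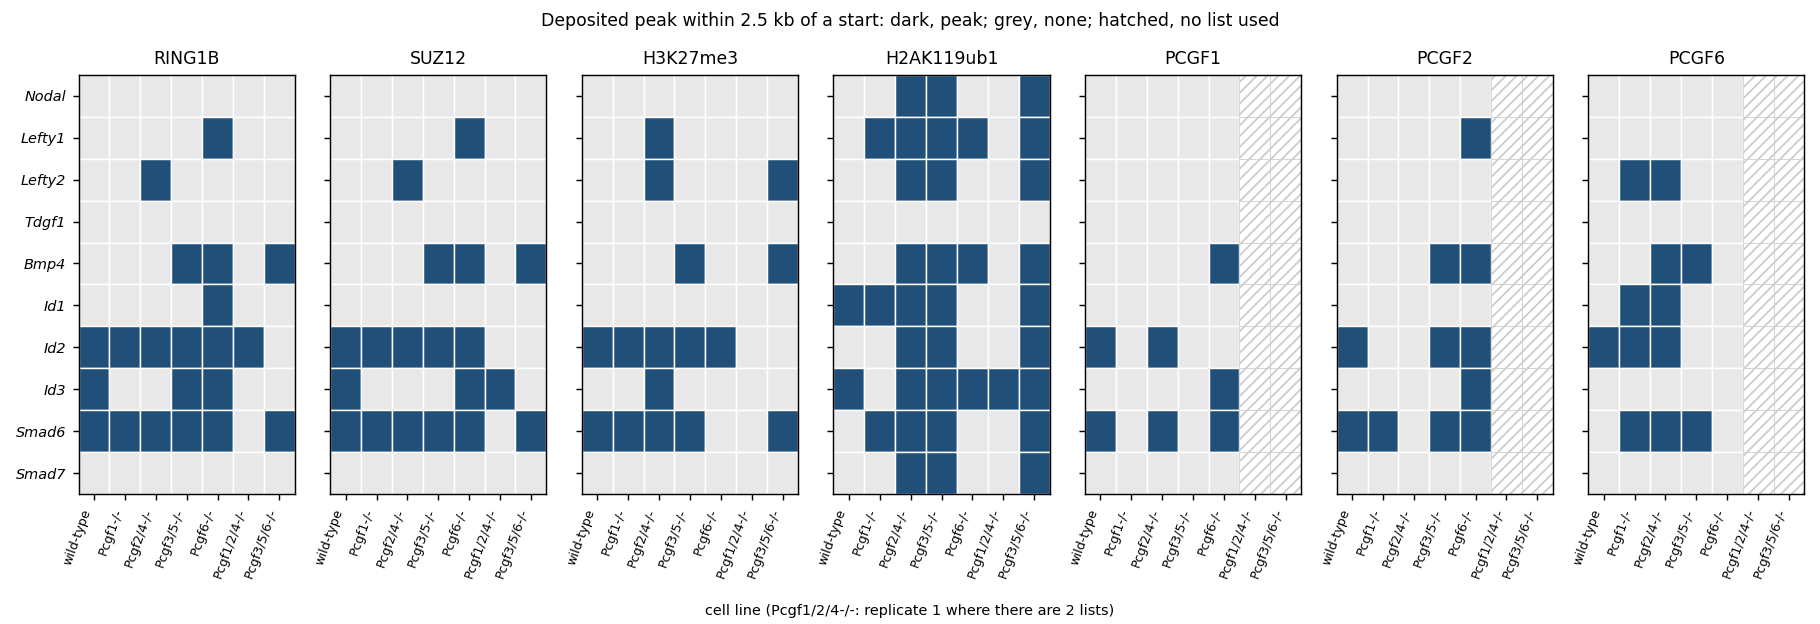
Presence of a deposited peak within 2.5 kb of a start of each gene (rows) in wild-type and 6 knockout lines (columns), 1 panel for each antibody. Dark cells have a peak, grey cells have none and hatched cells have no list used here. Tdgf1 has none in any panel, while Id2 and Smad6 have RING1B and SUZ12 in most lines.

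Among the wild-type RING1B, SUZ12 and PCGF peaks within 2.5 kb of the starts, the highest scores were at Smad6, where a RING1B peak at chr9:63867515-63870489 spanned the start of the gene with 22.8-fold enrichment (-log10 q 89.8). The SUZ12 peak there had 21.5-fold (-log10 q 85.1) and the PCGF2 peak 24.4-fold (-log10 q 65.1) enrichment. RING1B and SUZ12 peaks remained at Smad6 in every knockout line except Pcgf1/2/4-/-, where neither RING1B list nor the SUZ12 list had one. Smad6 transcript was lowest in that line and in Pcgf1-/-, in which RING1B peaks of up to 16.3-fold were listed.

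Id2 had a RING1B peak across its start in wild-type (from position -572 to 1535 in bp, 9.62-fold, -log10 q 24.5) and others upstream. One outside the 2.5 kb window, from -5551 to -3656, had 22.6-fold enrichment (-log10 q 88.4), and a SUZ12 peak lay over it (22.3-fold, -log10 q 90.8). In Pcgf3/5/6-/-, where Id2 transcript was highest, no RING1B, SUZ12 or H3K27me3 peak was listed within 2.5 kb, and no RING1B or SUZ12 peak within 5 kb. In Pcgf6-/-, where Id2 was also high, RING1B (10.8-fold, -log10 q 29.1) and SUZ12 (10.8-fold, -log10 q 18.2) peaks at the start were listed, and so was the upstream RING1B peak. Within 2.5 kb, Pcgf1/2/4-/- had a RING1B peak 2308 bp upstream in 1 of its 2 lists (6.25-fold) and no SUZ12 or H3K27me3 peak, and its upstream SUZ12 peak, from -5179 to -3774, had 8.22-fold enrichment (-log10 q 17.5). No RING1B peak lay across the start in Pcgf3/5/6-/-, Pcgf1/2/4-/- or Pcgf2/4-/-, of which the first 2 had the higher Id2 levels given above, and one did in Pcgf6-/-. The relation between these peaks and the transcript was not tested.

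Bmp4 showed the reverse order of peaks. It had no RING1B, SUZ12 or H3K27me3 peak in wild-type, Pcgf1-/-, Pcgf2/4-/- or Pcgf1/2/4-/-, in all of which its transcript was at 101 CPM or more. RING1B and SUZ12 peaks were listed in Pcgf6-/- (RING1B 7.35-fold, -log10 q 15.2; SUZ12 10.1-fold, -log10 q 16.1) and in Pcgf3/5/6-/- (RING1B 5.75-fold, -log10 q 9.12; SUZ12 8.30-fold, -log10 q 17.9), the lines with the lowest Bmp4. They were also listed in Pcgf3/5-/- (RING1B 6.90-fold, -log10 q 13.1; SUZ12 7.99-fold, -log10 q 17.1), where Bmp4 had 127 and 114 CPM, so a peak did not go with a low level in every line. In these lists the peaks with the highest scores lay within the gene, between positions 312 and 2076 downstream of the first start. H3K27me3 was listed there in Pcgf3/5-/- (5.95-fold) and Pcgf3/5/6-/- (9.76-fold), and PCGF2 in Pcgf3/5-/- (7.25-fold) and Pcgf6-/- (8.27-fold). PCGF6 peaks over the printed promoter window, which holds the CACGTG E-box, were listed in Pcgf2/4-/- (7.47-fold), Pcgf3/5-/- (7.69-fold) and the control knockdown shCtr (7.90-fold). They covered 250, 196 and 250 of its 250 bases. None was listed in wild-type, Pcgf1-/- or Pcgf6-/-.

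**Figure D4:**
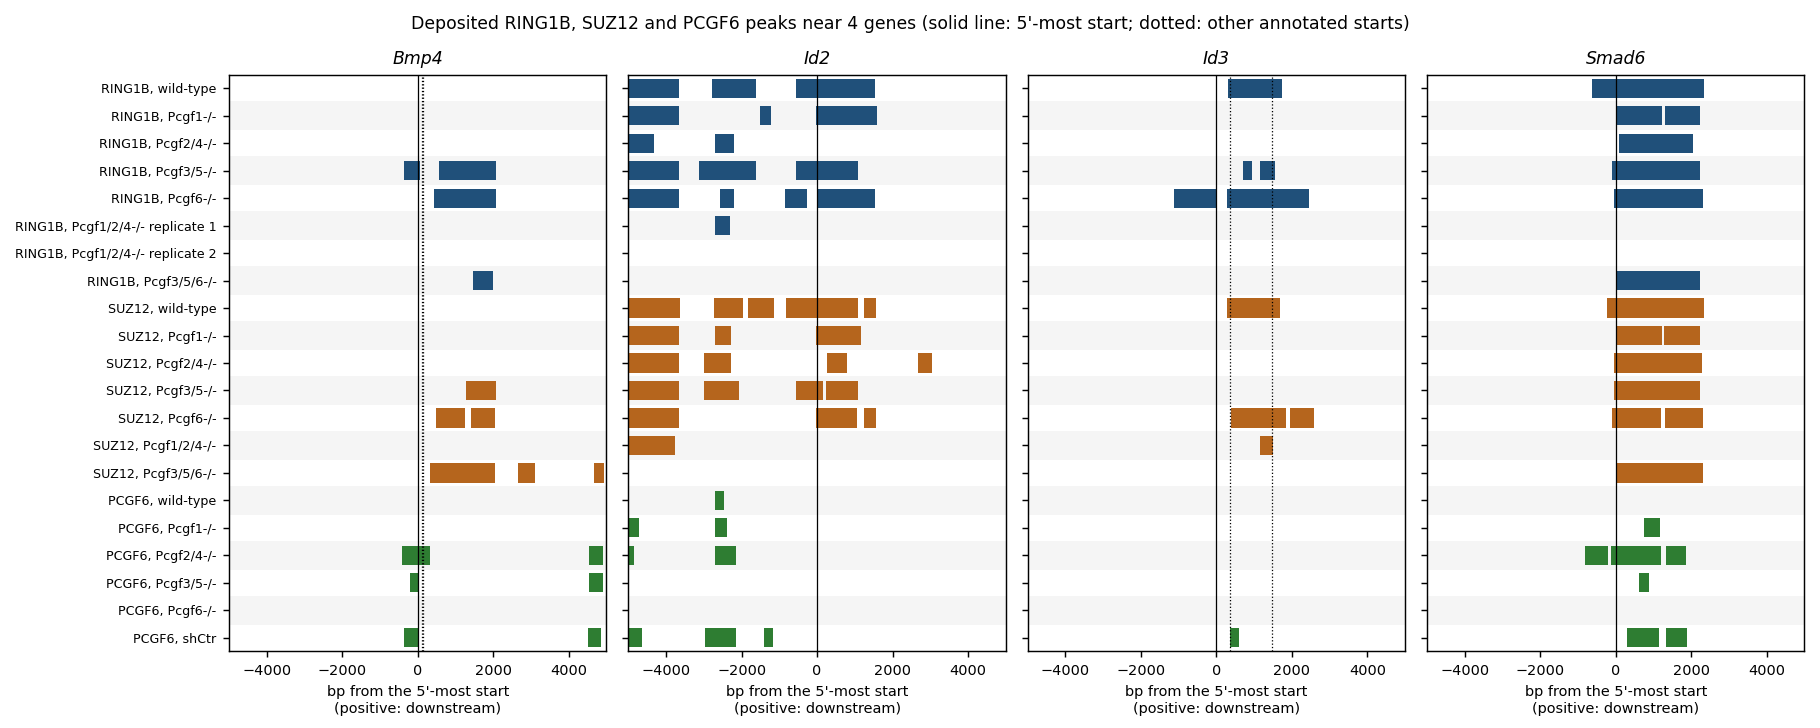
Extent of the deposited RING1B, SUZ12 and PCGF6 peaks (bars) within 5000 bp of the first start of Bmp4, Id2, Id3 and Smad6, in each line (rows). The horizontal axes give bp from that start, with downstream positive. At Bmp4, RING1B and SUZ12 bars appear in Pcgf3/5-/-, Pcgf6-/- and Pcgf3/5/6-/- alone, and at Id2 none appears in Pcgf3/5/6-/-.

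Id3 had a wild-type RING1B peak within the gene (7.95-fold, -log10 q 17.5) and one in Pcgf3/5-/- (5.53-fold) and Pcgf6-/- (8.83-fold, -log10 q 26.7). It had none in Pcgf1-/-, where its transcript fell, or in Pcgf3/5/6-/-, where it rose. None was listed either in Pcgf2/4-/- or Pcgf1/2/4-/-, where its transcript did not pass the test (log2 difference 0.10 and 0.30). Id1 had a RING1B peak in Pcgf6-/- alone among these lines (5.40-fold, -log10 q 10.8), and a SUZ12 peak in none. Lefty1 had RING1B (5.37-fold), SUZ12 (7.48-fold) and PCGF2 (8.57-fold) peaks in Pcgf6-/-, the line in which its transcript was lower than in wild-type. Lefty2 had RING1B (6.56-fold) and SUZ12 (5.41-fold) peaks in Pcgf2/4-/- alone, where its transcript did not pass the test. Nodal, Tdgf1 and Smad7 had no RING1B, SUZ12, H3K27me3 or PCGF2 peak in any line with RNA-seq. In all, RING1B peaks were listed at 6 of the 10 genes in Pcgf6-/- (13.1% of all genes), 4 in Pcgf3/5-/- (16.0%), 3 in Pcgf2/4-/- (17.6%), 2 in Pcgf1-/- (15.9%) and 2 in Pcgf3/5/6-/- (8.30%). In Pcgf1/2/4-/-, Id2 was the only one with a RING1B peak, in the first of the 2 lists, in which 1458 of 20819 genes had one.

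In the control knockdown shCtr, PCGF6 peaks were listed at 6 of the 10 genes (Lefty2, Bmp4, Id1, Id2, Id3 and Smad6), where 20.9% of all genes had a peak. In the knockdowns labelled shMGA, shMGAdHLH, shE2F6 and shE2F6-MGAdHLH, 0 of the 10 had one, against 0.735%, 2.27%, 1.89% and 0.831% of all genes in that order. In the RNA-seq lines, the PCGF6 count was 4 in Pcgf1-/- (18.1% of all genes), 5 in Pcgf2/4-/- (33.4%), 2 in Pcgf3/5-/- (5.40%) and 0 in Pcgf6-/- (1.63%). No PCGF6 peak was listed at any of the 10 in cells labelled Ring1a/b-/- (4.83%) or Ring1a-/-_Ring1bfl (6.26%). PCGF1 peaks were listed at 8 of the 10 in Ring1a-/-_Ring1bfl (32.6%), all but Lefty2 and Tdgf1, and at 1, Smad7, in Ring1a/b-/- (4.29%). PCGF2 peaks were listed at 0 in Ezh1/2-/- (0.826%) and Ring1a/b-/- (1.63%), and at 3 (Bmp4, Id3 and Smad6) in Ring1a-/-_Ring1bfl (9.94%). H2AK119ub1 peaks were listed at 9 of the 10 in Pcgf2/4-/- (42.0%), Pcgf3/5-/- (66.8%) and Pcgf3/5/6-/- (32.1%), with Tdgf1 the exception each time. These H2AK119ub1 lists ran from 1070 to 128786 peaks over the lines, so their counts cannot be compared between lines.

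Around the 10 genes, a list of 55 other genes of these pathways had 41 members past the filter on low counts. Of these 41, 7 rose and 9 fell in Pcgf1-/-, 2 and 8 in Pcgf2/4-/-, 3 and 3 in Pcgf3/5-/-, 12 and 13 in Pcgf6-/-, 5 and 7 in Pcgf1/2/4-/-, and 17 and 7 in Pcgf3/5/6-/-. The shares of all genes tested that changed in either direction were, in the same order, 32.3%, 21.6%, 21.6%, 46.5%, 37.0% and 53.3%. The median log2 fold change of the 41 genes was 0.32 in Pcgf3/5/6-/- and between -0.23 and 0.16 in the other lines. Msx2, a homeobox gene induced by BMP, rose from a mean of 10.3 CPM to 48.5 CPM in Pcgf1-/- (log2 difference 2.23, SE 0.21, edgeR adjusted p = 5.66e-06), to 25.6 CPM in Pcgf6-/- (1.31, SE 0.22, edgeR adjusted p = 0.000230) and to 62.1 CPM in Pcgf3/5/6-/- (2.58, SE 0.22, edgeR adjusted p = 4.76e-07). In Pcgf1-/- it thus rose where Id1, Id2 and Id3 fell. Fst, which encodes the activin and BMP antagonist follistatin, fell from 15.9 CPM to 0.823 CPM in Pcgf3/5/6-/- (-4.24, SE 0.36, edgeR adjusted p = 4.34e-07) and to 4.67 CPM in Pcgf6-/- (-1.77, SE 0.20, edgeR adjusted p = 7.10e-06). It also fell in Pcgf1/2/4-/- (-1.49, SE 0.27, edgeR adjusted p = 0.000791), Pcgf3/5-/- (-0.61, SE 0.18, edgeR adjusted p = 0.0307) and Pcgf1-/- (-0.51, SE 0.18, edgeR adjusted p = 0.0450). In Pcgf2/4-/- it was higher (24.4 CPM, 0.63, SE 0.17, edgeR adjusted p = 0.0199). Bmp8b, a BMP ligand, had a mean of 5.17 CPM in wild-type, fell to 0.593 CPM in Pcgf2/4-/- (-2.88, SE 0.48, edgeR adjusted p = 0.000909) and rose to 26.1 CPM in Pcgf3/5/6-/- (2.33, SE 0.26, edgeR adjusted p = 4.90e-06).

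In Pcgf6-/-, where the ligand Bmp4 fell, the BMP receptor genes Bmpr1a, Bmpr2 and Acvr1 rose, where 27.8% of all genes tested were higher. The list of 4 receptors was named after its values were seen. Its other gene, Bmpr1b, passed the filter on low counts only through Pcgf6-/- and Pcgf3/5/6-/-. With 0 counts in wild-type it could not be tested as lowered, so its rise is not set against that share. In Pcgf3/5/6-/-, where Bmp4 also fell, 1 of the 4 (Bmpr1b) rose and 1 (Bmpr1a) fell, with a median log2 difference of -0.15. In Pcgf6-/-, Bmpr1a went from 52.6 to 70.5 CPM (log2 difference 0.42, SE 0.10, edgeR adjusted p = 0.00266), Bmpr2 from 27.6 to 43.2 CPM (0.64, SE 0.17, edgeR adjusted p = 0.00710) and Acvr1 from 7.94 to 14.2 CPM (0.83, SE 0.25, edgeR adjusted p = 0.0130). Bmpr1b had 0 counts in wild-type and 2.99 and 3.06 CPM in Pcgf6-/-. Another ligand, Bmp7, fell in Pcgf6-/- from 20.8 to 8.91 CPM (-1.23, SE 0.18, edgeR adjusted p = 6.96e-05), as it did in Pcgf1/2/4-/- (-1.60, SE 0.25, edgeR adjusted p = 0.000293). Acvr1b, a receptor for Nodal and activin, fell from 38.7 to 13.8 CPM in Pcgf6-/- (-1.47, SE 0.20, edgeR adjusted p = 3.59e-05), and Skil, which encodes the SMAD repressor SnoN, rose from 38.5 to 81.3 CPM (1.08, SE 0.12, edgeR adjusted p = 3.68e-06). Bambi, a decoy receptor for BMP and related ligands, rose from 14.2 to 51.4 CPM in Pcgf1/2/4-/- (1.85, SE 0.18, edgeR adjusted p = 5.92e-06). Smad3, an effector of Nodal, rose from 11.1 to 35.6 CPM in Pcgf3/5/6-/- (1.68, SE 0.20, edgeR adjusted p = 9.95e-06) but fell in Pcgf1-/- (-1.13, SE 0.24, edgeR adjusted p = 0.00236).

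For each of the 10 genes, the 2 genes whose log2 CPM followed it most closely over the 14 libraries were named from those with a mean log2 CPM of at least 3. Libraries of a line share their genotype and depth, so Pearson's r is a description here. Nodal was most like Grn (r = 0.975) and Wbp2, Tdgf1 like Elp5 (r = 0.977) and Gpx1, and Lefty1 like Anxa11 (r = 0.943) and Alpk3. Lefty2 was most like Slc35a4 (r = 0.964) and Ptms, and Bmp4 like Tbc1d17 (r = 0.978) and Ido2. Id1 was most like Wnk3 (r = 0.982) and Syt11, Id2 like Ctgf (r = 0.975) and Col4a1, and Id3 like Acat1 (r = 0.972) and Vkorc1. Smad6 followed Mapk7 (r = 0.938) and Erf, and Smad7 followed Alg14 (r = 0.910) and Abi1. None of the 10 genes was among the closest 2 of another.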

How the data were processed

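RNA-seq counts and ChIP-seq peak lists of 95 samples were used as the authors deposited them. The authors deposited whole-number counts per gene symbol for 14 libraries, without normalization. Submitters' processing notes name TopHat2 2.1.1, Bowtie 1.2.2, HTSeq 0.7.2, Picard 1.62, MACS2 2.1.1, DESeq2 and the build mm9, with no role given. The use of strand is not given in the sources used here. Per the file headers, the authors' deposited tables of comparisons hold log2 fold changes with adjusted p-values, which were read to compare signs and calls. In each line, 9 or 10 of the 10 genes had the same sign as here. Of the authors' calls, those also made here were 6 of 6 in Pcgf1-/-, 2 of 4 in Pcgf2/4-/- and 4 of 4 in Pcgf3/5-/-. They were 6 of 6 in Pcgf6-/-, 6 of 7 in Pcgf1/2/4-/- and 7 of 8 in Pcgf3/5/6-/-. Smad7 in Pcgf1-/- and Smad6 in Pcgf1/2/4-/- were called only here. The Pcgf6-/- table's header carries another clone name than the count columns. Its log2 fold changes were close to those found here (Bmp4 -2.58 against -2.62, Id2 2.30 against 2.27). For Smad7 it holds 0.02 with an adjusted p of 0.948, the values that DESeq2 gave on the counts used here. Peak lists hold, as deposited, a fold enrichment and −log10 p and q values per peak. Peaks were called by the authors for each sample. The number of columns not mapped to a sample was 0.

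The test was edgeR 4.0.16 (R 4.3.3) with TMM factors, filterByExpr, 1 quasi-likelihood fit of 7 groups of 2 libraries and Benjamini-Hochberg adjustment over 15464 genes, threshold 0.05. An exact permutation of 2 against 2 libraries cannot reach that threshold. CPM use TMM-adjusted totals. The common dispersion was 0.015 (biological coefficient of variation 12.3%). A count of 0 allows up to 3 counts, which is 0.328 to 1.60 CPM per library. This limit covers counting error only. The script was tested on simulated counts. Genes and starts came from GENCODE M1 on NCBIM37, where 20819 symbols had 1 gene. Named genes of the wider list were taken from the 3 with the largest change in each direction among those past the threshold, with a mean log2 CPM of at least 2 and groups that do not overlap. Not all of these are reported here. The 4 BMP receptors were named as a whole list after their values were seen. The 10 genes and the lists were chosen with earlier results of these data known. Alternatives were DESeq2 1.42.0, its size factors in edgeR (RLE), no filter, loess offsets, a fit of only the 2 groups, a replicate block, leaving out each library, other peak windows and thresholds, and, chosen after seeing the data, summed wild-type libraries and a −log10 q of 20. Not analysed here are the spike-in scaling and single-library signal tracks.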

Additional observations from a re-analysis of the deposited data

How the results depend on the processing

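Smad6 rests on 3 to 37 counts per library, and leaving out 1 library ended many of the smaller calls. Of the 33 calls against wild-type, 21 held under every alternative run, as did 18 of the 24 between triple knockouts and the lines lacking part of their genes. Replicate numbers did not pair the libraries: over 21 pairs of lines the correlation of same-numbered deviations ran from -0.80 to 0.73 (median 0.02). A replicate block changed the call of 0 of 100 values, and the count for Pcgf1-/- stayed at 7. The Pcgf2/4-/- count of 2 became 4 with RLE factors, loess offsets and DESeq2, and ran to 4 when 1 library was left out. The Pcgf3/5-/- count of 4 fell to 2 with the wild-type libraries summed and to between 1 and 2 with 1 library left out. The count of 4 for Pcgf1/2/4-/- against Pcgf2/4-/- was 2 in a fit of only these groups and 1 to 2 with a triple knockout library left out. The cause was not tested.

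Of the wild-type peak counts, a −log10 q of 20 left 0 genes for PCGF1, PCGF6, H3K27me3 and H2AK119ub1, 1 for PCGF2, SUZ12 and USF1, and 2 for H3K36me3. A window of 1 kb left 0 for PCGF6, 1 for H3K27me3 and 2 for H3K36me3, and one of 5 kb gave 5 for USF1. The RING1B count of 3 and the H3K4me3 count of 10 were within 1.5 times under all of these.

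Log2 differences that changed sign were ones that had not passed the test. With loess offsets, Tdgf1 in Pcgf2/4-/- became -0.25 (edgeR adjusted p = 0.0115), Smad7 in Pcgf6-/- 0.09, Lefty1 in Pcgf1/2/4-/- 0.29 and Smad6 in Pcgf3/5/6-/- -0.64. Against the part knockouts they gave Smad6 0.20 (Pcgf1/2/4-/- against Pcgf1-/-), Smad6 -0.09 and Smad7 0.08 (both Pcgf3/5/6-/- against Pcgf3/5-/-). RLE factors and DESeq2 gave Lefty2 in Pcgf2/4-/- 0.02 and 0.03, Smad7 in Pcgf6-/- 0.02 and 0.02, and Lefty1 in Pcgf1/2/4-/- 0.08 and 0.08. DESeq2 gave Smad6 0.02 in Pcgf1/2/4-/- against Pcgf1-/-. A fit of only the 2 groups gave Lefty2 in Pcgf2/4-/- 0.04 and Lefty1 in Pcgf1/2/4-/- 0.05, and no filter gave Id3 in Pcgf6-/- -0.01. With 1 library left out, ranges that held both signs were, against wild-type, -0.91 to 0.14 for Lefty1, -0.09 to 0.06 for Lefty2, -0.39 to 0.42 for Tdgf1 and -0.09 to 0.30 for Id3 in Pcgf2/4-/-, and -0.16 to 0.24 for Tdgf1 in Pcgf3/5-/-. In Pcgf6-/- they were -0.04 to 0.16 for Tdgf1, -0.03 to 0.06 for Id3 and -0.07 to 0.05 for Smad7. They were -0.27 to 0.26 for Lefty1 in Pcgf1/2/4-/- and -0.16 to 0.19 for Smad6 in Pcgf3/5/6-/-. For Pcgf1/2/4-/- they were -0.52 to 0.09 for Id1 and -0.36 to 0.50 for Smad6 against Pcgf1-/-, and -0.14 to 0.90 for Lefty1, -0.34 to 0.28 for Id1 and -0.01 to 0.40 for Id3 against Pcgf2/4-/-. For Pcgf3/5/6-/- they were -0.08 to 0.10 for Nodal against Pcgf3/5-/- and -0.09 to 0.23 for Bmp4 against Pcgf6-/-. The cause of these changes was not tested.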
